A study of Triticum aestivum with 18 samples.

Results

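The genes described here are 4 wheat genes of seed filling and seed drying: TraesCS2D02G154300, a 1-Cys peroxiredoxin on chromosome 2D (Prx-2D), TraesCS5D02G440000, a vicilin on 5D (Vic-5D), TraesCS4A02G296000, a vicilin on 4A (Vic-4A), and a late embryogenesis abundant gene of the LEA17 type on 4A, TraesCS4A02G129100 (LEA-4A). They were taken by identifier, as 4 genes with 5 transcripts among the 107892 high-confidence wheat genes in the tables. The genes were chosen by their fold changes in earlier results on these same libraries. Prx-2D and Vic-5D stood out in Nanda Day 21 against Day 7, Vic-4A in Sadash Day 21 against Day 7, and LEA-4A in Nanda against Sadash on Day 7, so each gene's values in that comparison are given here as a description without a test. Other comparisons of a gene can share libraries with that one, as the step from Day 0 to Day 7 shares the Day 7 libraries, and are then not fully independent of the choice. The study cultured isolated microspores of Nanda, a highly embryogenic spring wheat, and Sadash, a spring wheat of limited response, and sampled Day 0 microspores, Day 7 proembryos and Day 21 embryo-like structures. Each of the 6 groups of genotype and day had 3 biological replicates, 18 libraries in all. Donor plants of both genotypes grew in a growth chamber, and in all groups, Day 0 included, the spikes had passed through a cold pre-treatment before isolation. RNA came from pooled material, and the Day 21 cultures held structures of several sizes and stages.

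Seeds of cereals fill their embryo with storage proteins and oil and then prepare to dry. Vicilins are 7S globulins, storage proteins held in vacuoles of the embryo and the aleurone. LEA proteins and dehydrins are hydrophilic proteins that protect membranes and other proteins while water is lost, and 1-Cys peroxiredoxins remove peroxides in embryo and aleurone cells of maturing grain. Oil bodies of the same cells are coated by oleosins, caleosins and steroleosins. In this program LEC1, a histone-fold subunit of the NF-Y factor, and VP1, the cereal counterpart of the B3 factor ABI3, act upstream, together with abscisic acid.

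High-confidence genes held 6675332 to 27463367 expected counts per library, and both ends of that range were Sadash Day 21 libraries, replicate 2 with the fewest counts and replicate 1 with the most. Levels are given as CPM, counts scaled to library size with TMM factors, and as TPM, which also accounts for transcript length, where genes are compared with each other. Of 62692 genes with at least 1 CPM in any library, all 4 described here were tested by edgeR's quasi-likelihood test, and calls needed an adjusted p below 0.01 together with a log2 difference of 1 or more in size. GAMYB-type genes, which encode MYB factors of pollen development, served as markers of the pollen program. Their summed level over 5 genes was 127 to 136 TPM on Day 0, 15.3 to 18.6 TPM on Day 7 and 6.25 to 8.28 TPM on Day 21 in Nanda, and 77.3 to 92.8 TPM on Day 0, 30.9 to 36.5 TPM on Day 7 and 5.26 to 7.93 TPM on Day 21 in Sadash. In pooled RNA, fewer cells of a type and less RNA per cell cannot be told apart.

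**Figure D1:**
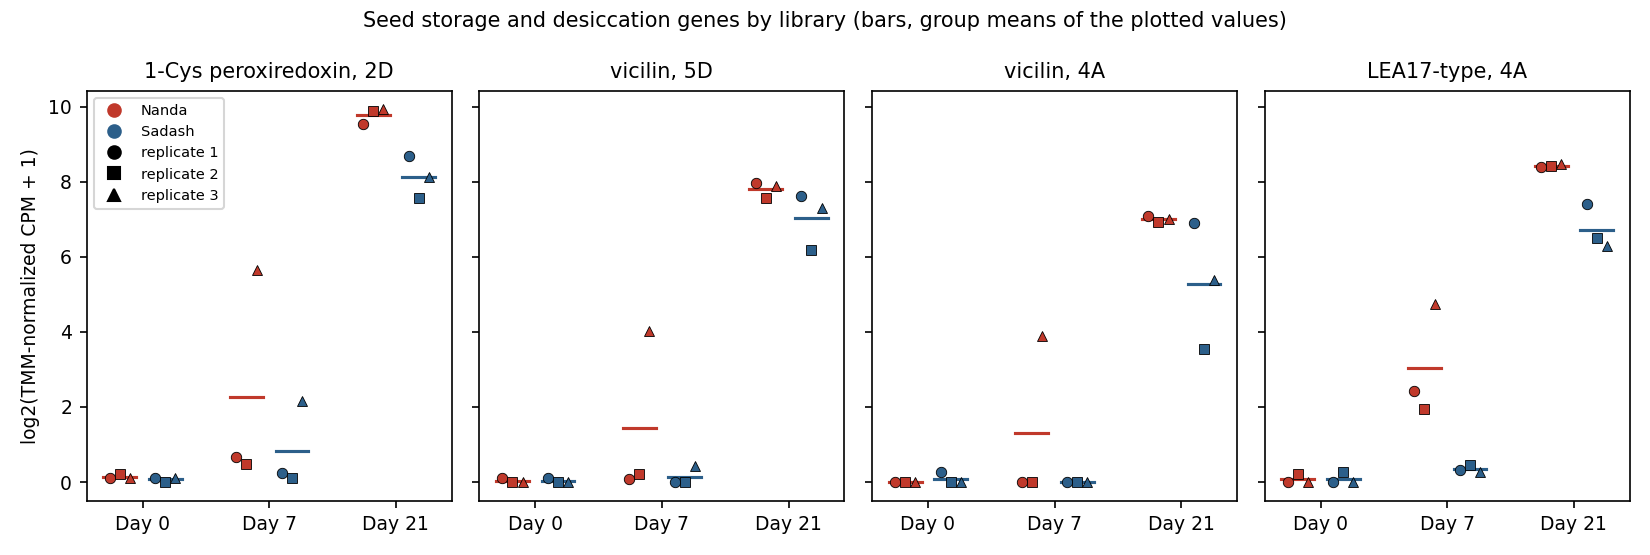
Level of each gene in each library, as log2 of CPM plus 1, on Days 0, 7 and 21, with Nanda left of Sadash on each day, a symbol per replicate and a bar at the mean of the plotted values. All 4 genes were near 0 on Day 0 and high on Day 21, and in Nanda Day 7 the replicate 3 point stands above the other replicates in every panel.

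Prx-2D became one of the most abundant transcripts of the Nanda cultures. Its levels in Nanda were 0.073, 0.15 and 0.081 CPM on Day 0, 0.58, 0.40 and 49.4 CPM on Day 7, and 743, 953 and 980 CPM on Day 21, in replicates 1, 2 and 3 of each day. In Sadash they were 0.068, 0 and 0.086 CPM on Day 0, 0.17, 0.075 and 3.44 CPM on Day 7, and 415.0, 190.0 and 278 CPM on Day 21. Each Day 21 library was above each Day 7 library of its genotype, and replicate 3 was the high one of both Day 7 groups. By TPM, Prx-2D ranked 6th, 4th and 4th among all high-confidence genes in the Nanda Day 21 libraries, with 1304, 1713 and 1816 TPM, and 74th, 447th and 207th in the Sadash Day 21 libraries, with 598, 291 and 425 TPM. Nearly all of this came from 1 of its 2 transcripts, the second model, which held 99.6% to 99.8% of the gene's counts in Nanda Day 21 libraries and 99.2% to 99.8% in Sadash Day 21 libraries.

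The change of Prx-2D between Day 21 and Day 7 can be tested in Sadash, where the gene was not singled out. There it was higher on Day 21 by a log2 fold change of 7.82 ± 1.23 (SE, n = 3 each; edgeR adjusted p = 3.3e-05), and the mean was 294 CPM on Day 21 and 1.23 CPM on Day 7. Without Sadash Day 7 replicate 3 the difference was 11.16. In Nanda the means were 892 ± 130.0 CPM on Day 21 and 16.8 ± 28.3 CPM on Day 7 (SD, n = 3 each), a ratio of 53.1 that is given as a description. In Nanda it was also higher on Day 7 than on Day 0, by 7.13 ± 1.72 on the log2 scale (SE; edgeR adjusted p = 0.0018), but without Nanda Day 7 replicate 3 the difference was 2.11 with an adjusted p of 0.26, the upper end of a range that began at 1.7e-05 over 26 alternatives, and without Nanda Day 0 replicate 2 the adjusted p was 0.011. With all libraries kept, limma did not call this step in Nanda, at 3.78 on log2(TPM + 0.1) (adjusted p = 0.024) and 2.34 on log2(TPM + 1) (0.057). In Sadash the first step did not pass the test, at a log2 difference of 4.49 ± 2.95 (SE; edgeR adjusted p = 0.22).

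Vic-5D was almost silent until Day 7 outside a single library. In Nanda it had 0.073, 0 and 0 CPM on Day 0, 0.064, 0.16 and 15.3 CPM on Day 7, and 251, 189 and 237 CPM on Day 21. In Sadash it had 0.068, 0 and 0 CPM on Day 0, 0, 0 and 0.35 CPM on Day 7, and 197, 71.2 and 157 CPM on Day 21. A few reads at most lay behind each of the low values, so those values cannot be ordered among themselves. In Sadash, Vic-5D was higher on Day 21 than on Day 7 by 10.03 ± 1.26 on the log2 scale (SE; edgeR adjusted p = 2.5e-06), and the summed counts, 8308 on Day 21 against 5 on Day 7, gave a ratio of 1302 after scaling with a 95% exact interval of 558 to 4011 that covers counting error only. Without Sadash Day 7 replicate 3, which held all the Day 7 counts, the fitted difference was 14.03 and depends on the prior count. In Nanda, Day 21 averaged 225 ± 32.7 CPM and Day 7 averaged 5.18 ± 8.79 CPM (SD, n = 3 each), a ratio of 43.5 given as a description. The step from Day 0 to Day 7 in Nanda passed the test at 7.33 ± 1.94 (SE; edgeR adjusted p = 0.0036) but rested on replicate 3. Without that library the difference was 1.93 with an adjusted p of 0.44, and over 26 alternatives the adjusted p ran from 3.8e-04 to 0.44. It also missed the threshold without Nanda Day 0 replicate 1 (adjusted p = 0.015), 2 (0.021) or 3 (0.013). With all libraries kept, limma missed it too, at 2.55 on log2(TPM + 0.1) (adjusted p = 0.056) and 1.21 on log2(TPM + 1) (0.10).

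Vic-4A was not detected in most of the early libraries. Nanda Day 0 held no count of it in 3 libraries, Nanda Day 7 had 0, 0 and 13.8 CPM, and Nanda Day 21 had 135, 121 and 129 CPM. In Sadash it had 0.20, 0 and 0 CPM on Day 0, no count in the 3 libraries of Day 7, and 120.0, 10.7 and 40.5 CPM on Day 21. A floor of 3 counts in a library corresponded to 0.113 to 0.429 CPM. The Nanda Day 21 libraries lay close together, with an SD of 7.06 CPM on a mean of 128.5 CPM, and the Sadash Day 21 libraries far apart, with an SD of 56.3 CPM on a mean of 57.0 CPM. In Nanda, where the gene was not singled out, it was higher on Day 21 than on Day 7 by 4.90 ± 1.0996 on the log2 scale (SE; edgeR adjusted p = 0.0016). DESeq2 gave 4.89 and an adjusted p of 0.12, the highest of 26 alternatives, whose lowest was 4.7e-06. The size rested on Nanda Day 7 replicate 3, since without it Day 7 held no count and the fitted difference was 13.90, a value that depends on the prior count. In Sadash, the Day 21 mean was at least 246-fold higher than Day 7, a bound from the mean floor of the Day 7 libraries and given without a test. It does not cover the spread of the Sadash Day 21 libraries, from 10.7 to 120.0 CPM. The step from Day 0 to Day 7 in Nanda did not pass the edgeR test (adjusted p = 0.023) and had counts in replicate 3 of Day 7 only, so without that library the difference was 0. It was called by DESeq2 (adjusted p = 1.9e-13), without a filter (0.0058), with only the libraries compared (0.0075) and without Nanda Day 7 replicate 1 (0.0073) or 2 (0.0089).

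LEA-4A was above 1 CPM in every Nanda Day 7 library, as no other of the 4 genes was. Its levels in Nanda were 0, 0.15 and 0 CPM on Day 0, 4.35, 2.85 and 25.8 CPM on Day 7, and 335, 342 and 357 CPM on Day 21. In Sadash they were 0, 0.21 and 0 CPM on Day 0, 0.26, 0.38 and 0.21 CPM on Day 7, and 169, 88.9 and 77.2 CPM on Day 21. In Nanda it was higher on Day 7 than on Day 0 by 7.19 ± 1.06 on the log2 scale (SE; edgeR adjusted p = 1.5e-05), a difference that passed under all 26 alternatives, with adjusted p from 1.3e-09 to 2.7e-04. Its size was 5.64 without Nanda Day 7 replicate 3 and 10.27 without Nanda Day 0 replicate 2. Its 388 summed counts on Day 7 against 3 on Day 0 gave a ratio of 152 after scaling, with a 95% exact interval of 51.5 to 738 for counting error. The second step was also called in both genotypes, at 5.00 ± 0.56 in Nanda (edgeR adjusted p = 7.9e-07) and 8.60 ± 0.81 in Sadash (edgeR adjusted p = 7.4e-08; SE, n = 3 each), and the value in Nanda was 6.56 without Nanda Day 7 replicate 3. The first step in Sadash did not pass, at 1.81 ± 2.07 (SE; edgeR adjusted p = 0.49).

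On Day 7 the genotypes were set apart by LEA-4A, the comparison it was chosen for, with a mean of 11.0 CPM in Nanda and 0.28 CPM in Sadash, and the lowest Nanda library 7.56 times the highest Sadash library. Of all genes tested, 20.8% had every Nanda Day 7 library above every Sadash Day 7 library. For the other 3 genes the libraries overlapped. Prx-2D averaged 16.8 CPM in Nanda and 1.23 CPM in Sadash, and the difference of 3.64 ± 1.19 on the log2 scale missed the threshold (SE; edgeR adjusted p = 0.025). Without Nanda Day 7 replicate 3 its sign turned, to -1.38 with an adjusted p of 0.30, in a range of 0.0062 to 0.30 over 26 alternatives. Vic-5D missed it as well, at 5.17 ± 1.54 (SE; edgeR adjusted p = 0.016). It was called by edgeR without a filter (adjusted p = 0.0047) and without Nanda Day 7 replicate 1 (0.0027) or 2 (0.0042), but was -0.24 without replicate 3. Vic-4A had counts in Nanda Day 7 replicate 3 only, and its log2 difference of 8.98 missed the threshold too (edgeR adjusted p = 0.045). DESeq2 called it, at 22.8 (adjusted p = 1.2e-12), and both sizes depend on how the tool treats a group without counts. Beside these values, GAMYB-type genes summed to 15.3 to 18.6 TPM in Nanda Day 7 libraries and 30.9 to 36.5 TPM in Sadash Day 7 libraries, and the part of this in the result was not tested.

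The replicates of Nanda Day 7 were far apart for these genes. Prx-2D in replicate 3 was 85.9 times the higher of the other replicates, Vic-5D 96.7 times and LEA-4A 5.92 times, and Vic-4A was at least 58.0 times a floor of 3 counts. Replicate 3 was at least 4 times both others, after adding 1 CPM, for all 4 genes, against 0.139% of all genes tested (87 of 62692). It met the same limit for 13 of 39 related seed genes: 7 vicilins and vicilin-like genes, the 2B peroxiredoxin, both LEA17-type partners of LEA-4A, a pair of oleosins and the 2D caleosin TraesCS2D02G364100. No other library of the 18 did so for any of the 4 genes or of the 39. Sadash Day 7 replicate 3 met the limit for the same share of all genes tested, 0.139%. The added 1 CPM makes the limit hard to reach at low levels. Prx-2D missed it in that Sadash library with 3.44 CPM against 0.17 and 0.075 CPM. In replicate 3 the 4 genes stood at 5.54% (Prx-2D), 6.80% (Vic-5D), 7.48% (LEA-4A) and 10.7% (Vic-4A) of their Nanda Day 21 means, and the other 10 storage, peroxiredoxin and LEA17-type genes at 6.10% to 12.5%.

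**Figure D2:**
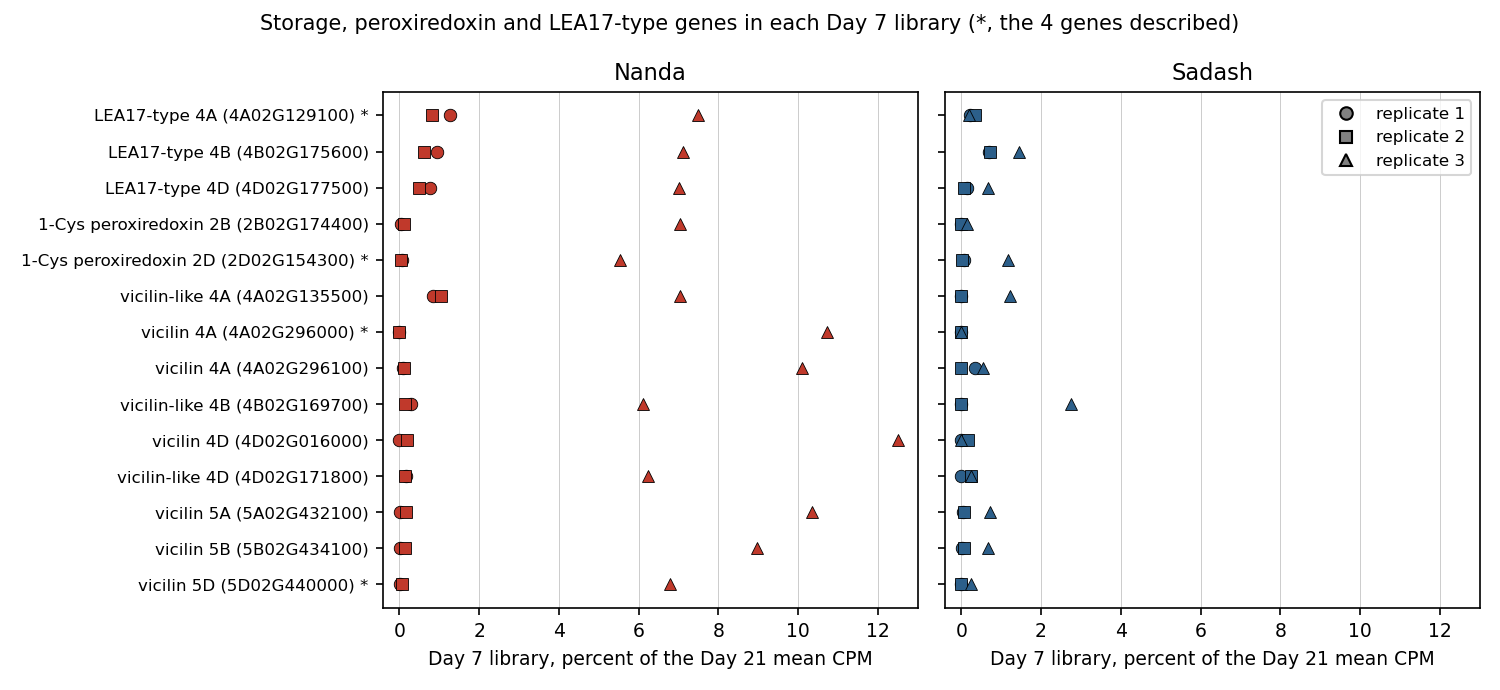
Level of 14 storage, peroxiredoxin and LEA17-type genes in each Day 7 library, as a percentage of the mean CPM of the same gene on Day 21, with Nanda left and Sadash right and a symbol per replicate. Nanda replicate 3 lies between 5.54% and 12.5% for these genes, and the other Nanda replicates lie at or below 1.26%.

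Other genes did the same in that library. Among all genes tested, 22 had a Nanda Day 21 mean of at least 100 CPM and at most 1 CPM in every Nanda Day 0 library and in Nanda Day 7 replicates 1 and 2. In replicate 3 all 22 had at least 1 CPM, and they stood at a median of 6.75% of their Day 21 means, with quartiles of 5.87% and 8.06%. They included 3 of the 4 genes, 6 related seed genes and 13 others, whose own median was 6.63%. The corresponding 19 genes in Sadash had a median of 0.71% in Sadash Day 7 replicate 3, and 11 of them reached 1 CPM. Seed genes present in all 3 Nanda Day 7 libraries varied in this. The LEA group 3 gene TraesCS1D02G369200 had 16.4, 14.9 and 43.4 CPM in replicates 1, 2 and 3, and the 2D oleosin TraesCS2D02G414800 had 2.05, 2.22 and 30.7 CPM. Others, named here after their values were seen, showed no such gap. LEC1 on 6A had 26.6, 24.3 and 21.8 CPM in the Nanda Day 7 replicates, the 6A caleosin TraesCS6A02G162900 had 6.14, 6.18 and 6.17 CPM and the 5B steroleosin TraesCS5B02G061600 had 17.3, 19.9 and 20.0 CPM. The GAMYB-type sum was 15.3 to 18.6 TPM over the same libraries. Why replicate 3 differs was not tested.

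The order of the groups by mean level was the same for all 4 genes, with Nanda Day 21 highest, then Sadash Day 21 and Nanda Day 7. Sadash Day 7 and Day 0 of either genotype came last. For Vic-5D, Vic-4A and LEA-4A these groups lay too near the floor of 3 counts to be ordered. The Day 7 groups overlapped for Prx-2D, Vic-5D and Vic-4A. The Day 21 groups overlapped for Vic-5D alone, whose lowest Nanda library (189 CPM) was below the highest Sadash library (197 CPM).

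On Day 21 the means were higher in Nanda for all 4 genes, though none was called by edgeR, against 6.96% of all genes tested called higher in Nanda and 5.60% lower. Of the 4, 1 had an unadjusted p under 0.05, DESeq2 called 0 and limma on log2(TPM + 1) called 1. Every Nanda library was above every Sadash library for 3 of the 4, a state that 26.5% of all genes tested shared. Prx-2D averaged 892 ± 130.0 CPM in Nanda and 294 ± 113 CPM in Sadash (SD, n = 3 each), a log2 difference of 1.60 ± 0.85 (SE; edgeR adjusted p = 0.17). LEA-4A averaged 344 ± 11.4 CPM in Nanda and 112 ± 49.9 CPM in Sadash (SD, n = 3 each), a log2 difference of 1.62 ± 0.48 (SE; edgeR adjusted p = 0.014). In a fit of the 6 Day 21 libraries alone both were called, Prx-2D at an adjusted p of 6.8e-04 and LEA-4A at 7.0e-04, and without Nanda Day 7 replicate 3, whose spread enters the shared fit, they were called at 0.0041 and 1.0e-04. Over 26 alternatives the adjusted p ran from 6.8e-04 to 0.43 for Prx-2D and from 1.0e-04 to 0.089 for LEA-4A, and the difference stayed between 1.36 and 1.93 for Prx-2D and between 1.41 and 2.05 for LEA-4A.

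The vicilins differed less in the fit of all libraries, by values that depended on single Sadash Day 21 libraries. Vic-4A had means of 128.5 CPM in Nanda and 57.0 CPM in Sadash, with a log2 difference of 1.15 ± 0.89 (SE; edgeR adjusted p = 0.38), and its lowest Nanda library was 1.01 times its highest Sadash library. With 1 library left out the difference ranged from 0.68, without Sadash Day 21 replicate 2, to 2.28, without Sadash Day 21 replicate 1. Vic-5D had means of 225 CPM in Nanda and 142 CPM in Sadash, with a log2 difference of 0.66 ± 0.67 (SE; edgeR adjusted p = 0.50), and ranged from 0.35 to 0.98 without the same libraries. Replicate 1 was the highest Sadash Day 21 library for all 4 genes, as it was for 39.2% of all genes tested, and it was also the most deeply sequenced library.

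The difference in the second step between the genotypes is an interaction of genotype and day. For each of the 4 genes it contains the comparison that chose the gene, so its values are a description. On the log2 scale it was -2.05 ± 1.48 for Prx-2D, -4.50 ± 1.80 for Vic-5D, -7.84 ± 3.98 for Vic-4A and -3.59 ± 1.07 for LEA-4A (SE), a negative sign meaning a smaller step in Nanda. Without Nanda Day 7 replicate 3 the values were 2.98 for Prx-2D and 0.91 for Vic-5D, both of the opposite sign. For Vic-4A the value was then 1.15, which only repeats its Day 21 difference, since no Day 7 library held a count. The value of Vic-4A in the full fit depends on the prior count, as Sadash Day 7 held no count. LEA-4A stayed negative with any 1 library left out, from -4.05 to -2.03. Among the related seed genes edgeR called 9 of 39 in this interaction, 9 with a negative and 0 with a positive sign. Of all 62692 genes tested, 16.2% were called in either direction, 5894 with a negative and 4264 with a positive sign. In the interaction of the first step edgeR called 1 of 39, with a positive sign, against 7.41% of all genes in either direction (2483 positive and 2161 negative).

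**Figure D3:**
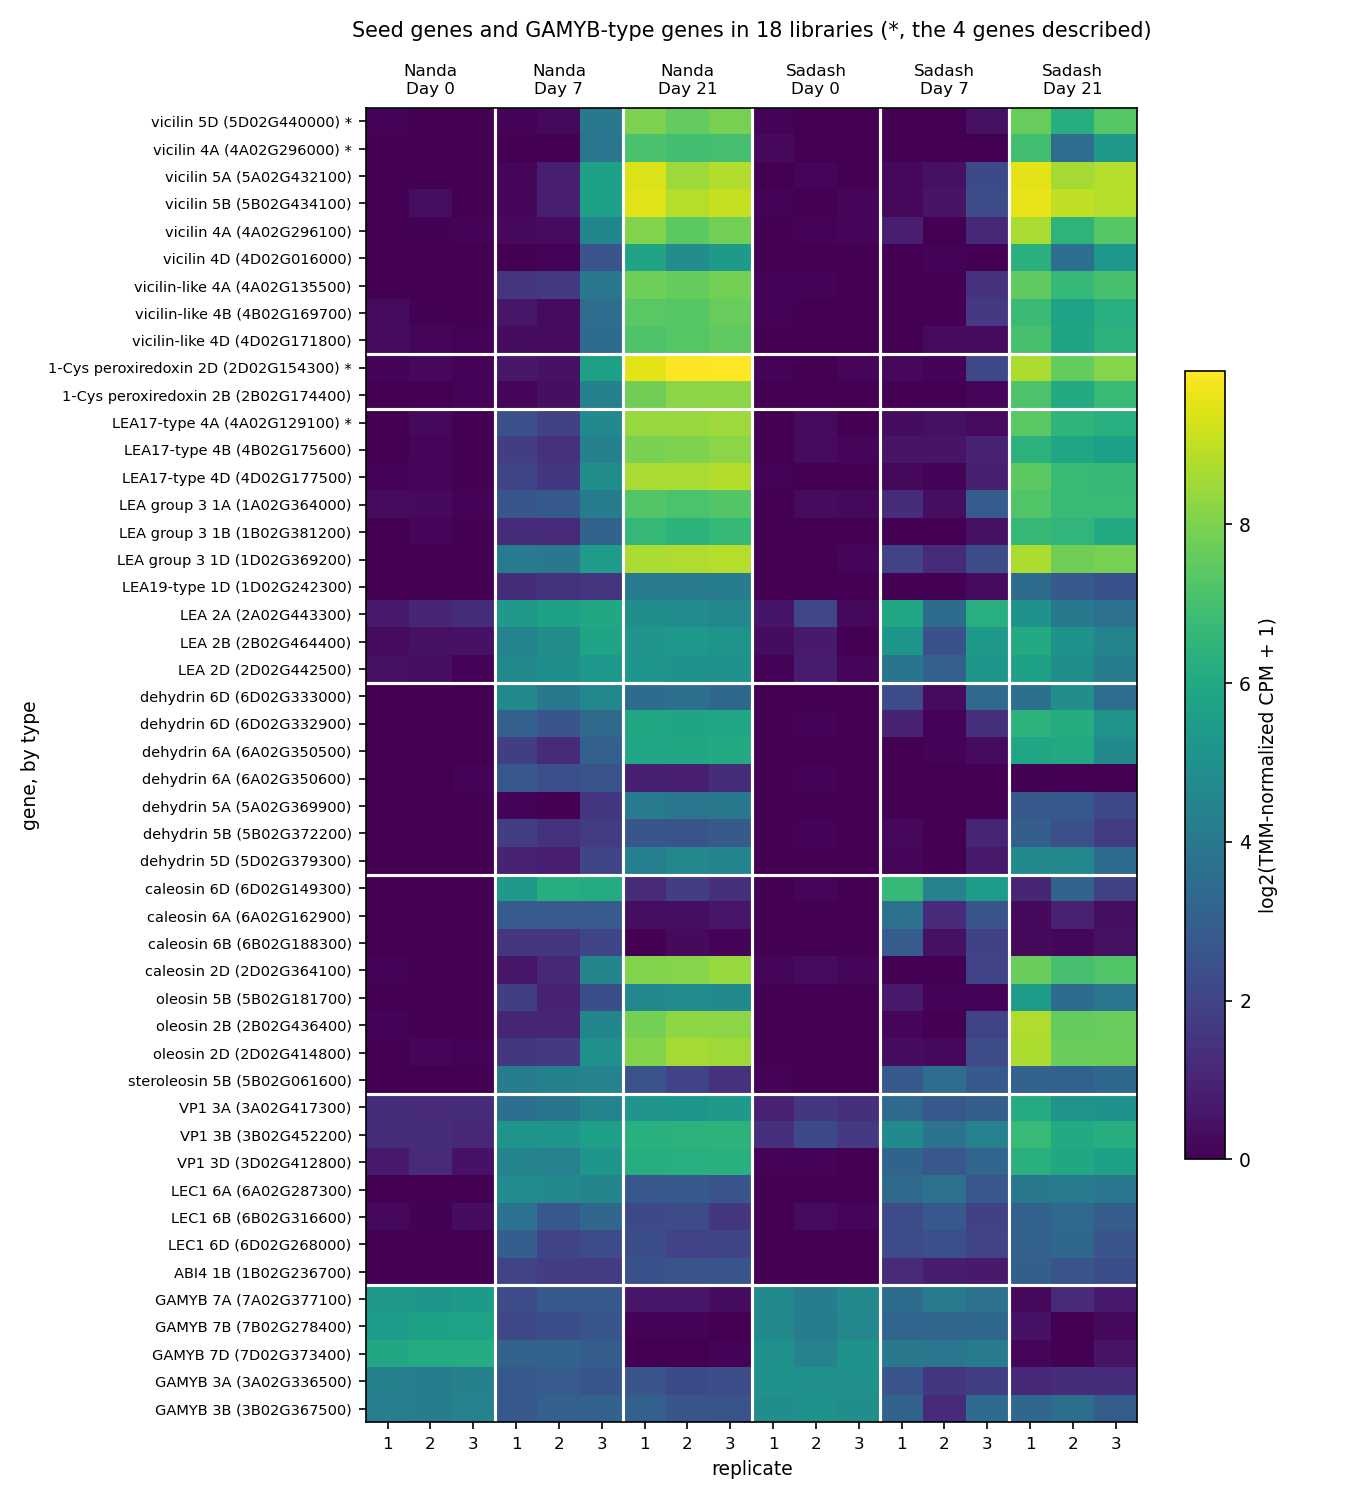
Log2 of CPM plus 1 of the 4 genes (starred), 39 related seed genes and 5 GAMYB-type genes (rows, by type) in the 18 libraries (columns, by group and replicate, with Nanda left of Sadash). Storage, peroxiredoxin and LEA17-type rows are bright on Day 21 and in Nanda Day 7 replicate 3, the chromosome 6 caleosin rows are bright on Day 7, and the GAMYB-type rows are bright on Day 0.

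The related seed genes were 40 others that the study's annotation names as vicilins, peroxiredoxin, LEA proteins, dehydrins, oil body proteins or regulators, or that complete a homoeologous triad with one of these. Many were listed by the study because they rose from Day 0 to Day 7 in Nanda, so their count there is no independent evidence. The study's lists also hold genes it called in the other steps and between the genotypes in these same libraries. Counts of related genes in those comparisons are therefore not independent either, and the shares of all genes are given beside them for scale only. In that step 37 of 39 tested were higher and 0 lower by edgeR, against 18.5% higher and 15.2% lower among all genes tested, with a median log2 difference of 7.58 against 0. In Sadash the first step called 18 of 39 as higher and 0 as lower, against 16.0% and 12.0% of all genes. In both genotypes the unadjusted p under 0.05, DESeq2 and limma also gave 0 lower. The calls in Sadash fell on different groups. All 7 regulators were higher (3 VP1, 3 LEC1 and 1 ABI4 gene), with 5 of 9 LEA genes, 4 of 8 oil body genes and 2 of 7 dehydrins, and none of 7 storage genes and not the 2B peroxiredoxin. None of the 4 genes described was higher in that step either, and no storage gene or member of the 4 had an unadjusted p under 0.05 there or was called as higher by DESeq2 or limma.

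In the second step most of the related seed genes were higher on Day 21, and some were lower. In Nanda 25 of 39 were higher and 7 lower, against 15.8% and 18.3% of all genes, and in Sadash 27 were higher and 3 lower, against 16.8% and 18.4%. All 7 storage genes and the 2B peroxiredoxin were higher in both genotypes, like the 4 genes described. The 3 caleosins on chromosome 6 went the other way in both, with the 6D copy TraesCS6D02G149300 at 1.31 to 2.48 CPM on Day 21 and 40.3 to 73.0 CPM on Day 7 in Nanda, and at 1.096 to 8.01 CPM on Day 21 and 20.3 to 100.6 CPM on Day 7 in Sadash. The 2D caleosin and the oleosins on 2B and 2D, by contrast, were higher on Day 21. LEA genes on 2A, 2B and 2D were not called in either genotype, and had 20.6 to 62.0 CPM in Nanda already on Day 7. LEC1 on 6A was lower on Day 21 in Nanda, with 5.09 to 6.13 CPM on Day 21 and 21.8 to 26.6 CPM on Day 7, and was not called in Sadash, with 14.1 to 16.2 CPM on Day 21 and 5.55 to 12.0 CPM on Day 7.

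**Figure D4:**
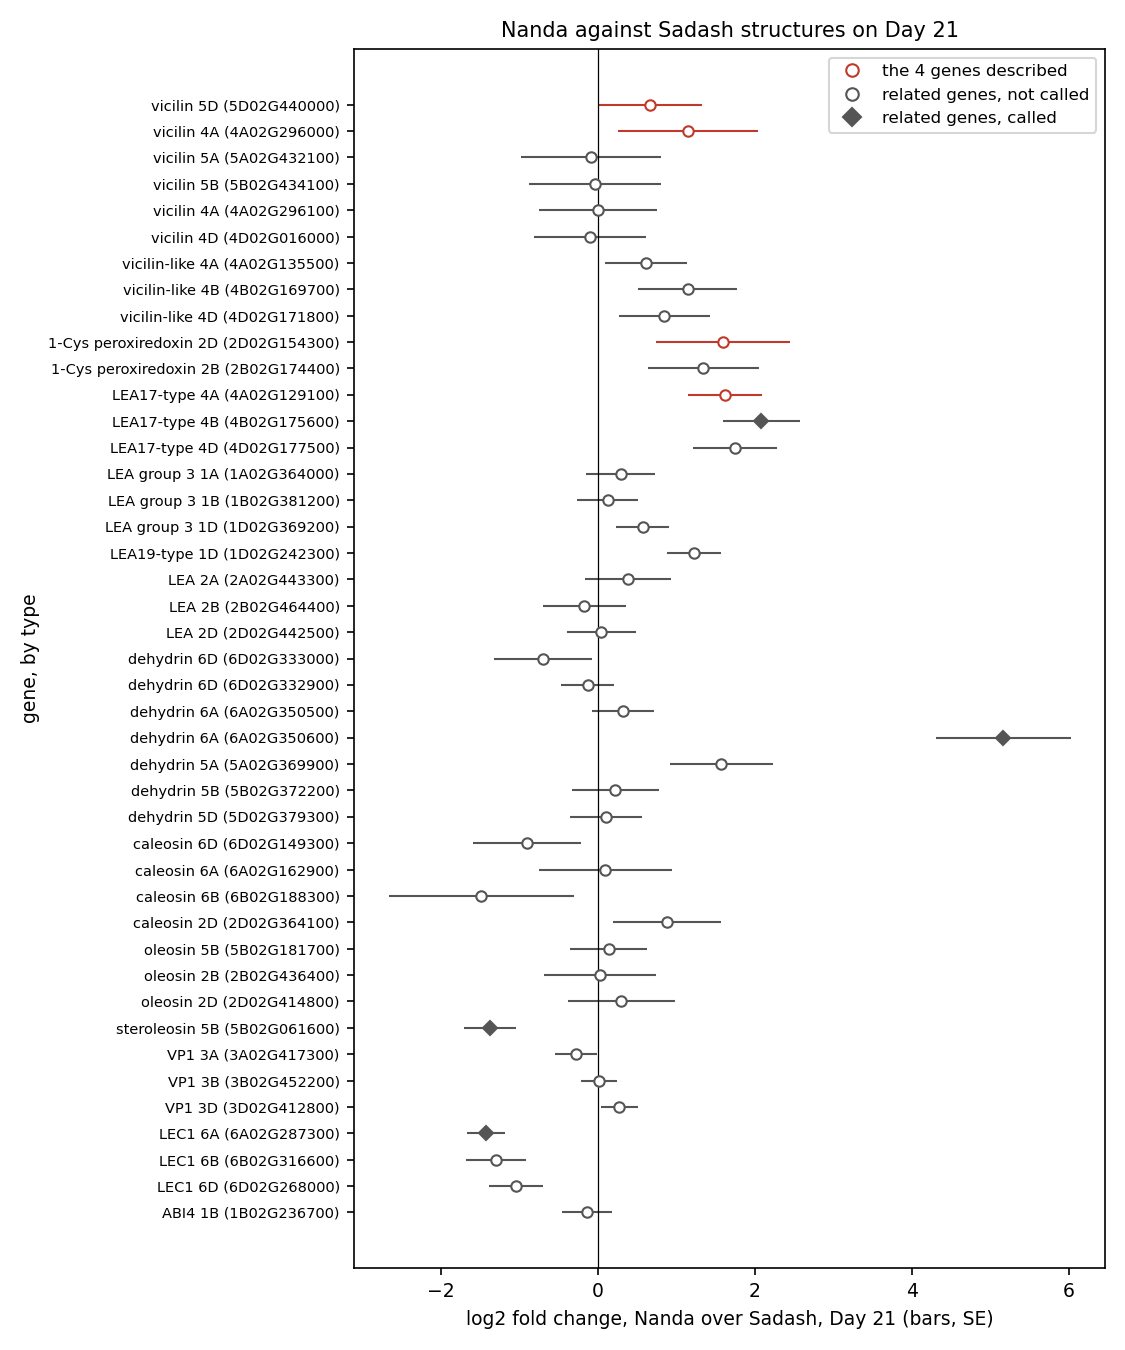
Log2 fold change of Nanda over Sadash on Day 21 with its standard error for the 4 genes (red) and 39 related seed genes (grey), with filled diamonds for genes called. The peroxiredoxins and the LEA17-type genes lie to the right of 0, the vicilins on 5A and 5B lie at 0, and the LEC1 genes lie to the left.

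Few of the related genes were called between the genotypes on Day 21, with 2 of 39 higher in Nanda and 2 lower, against 6.96% and 5.60% of all genes tested. The higher ones were the LEA17-type copy on 4B, at 2.09 ± 0.49, and the dehydrin TraesCS6A02G350600, at 5.17 ± 0.86 (log2, SE; edgeR adjusted p = 0.0029 and 2.2e-04). That dehydrin was low in both, at 0.77 to 1.40 CPM in Nanda and at most 0.038 CPM in Sadash. The size of its difference therefore depends on the prior count. The lower ones were LEC1 on 6A, at -1.43 ± 0.24, and the 5B steroleosin, at -1.37 ± 0.34 (edgeR adjusted p = 4.2e-04 and 0.0049). Relatives of Prx-2D and LEA-4A had values close to theirs: the 2B peroxiredoxin differed by 1.35 ± 0.71 and the 4D copy of the LEA17 type by 1.75 ± 0.54, both not called. The 5A and 5B vicilins, partners of Vic-5D, differed by -0.09 ± 0.90 and -0.04 ± 0.84. The means of other vicilins on 4A and 4D were also near equal, unlike those of Vic-4A. TraesCS4A02G296100 averaged 221 CPM in Nanda and 220 CPM in Sadash, and TraesCS4D02G016000 averaged 40.6 and 42.7 CPM. Their Sadash libraries were far apart, at 87.8 to 413 CPM and 11.3 to 78.8 CPM. The vicilin-like genes, by contrast, had higher means in Nanda, with every Nanda library above every Sadash library. TraesCS4A02G135500 averaged 212 CPM in Nanda and 138 CPM in Sadash, TraesCS4B02G169700 175 and 79.0 CPM, and TraesCS4D02G171800 163 and 90.0 CPM. Of the 7 related storage genes edgeR called 0 on Day 21. On Day 7, 14 of 39 were higher in Nanda and 0 lower by edgeR (also 0 lower at an unadjusted p under 0.05, by DESeq2 and by limma), against 6.78% and 6.03% of all genes, among them 5 of 9 LEA genes and 1 of 7 storage genes. A fit of the Day 7 libraries alone called 5. On Day 0, 1 of 39 was called higher, the VP1 copy on 3D, and 0 lower by edgeR, against 5.44% and 5.12% of all genes (1 was lower at an unadjusted p under 0.05, and 0 by DESeq2 and by limma).

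**Figure D5:**
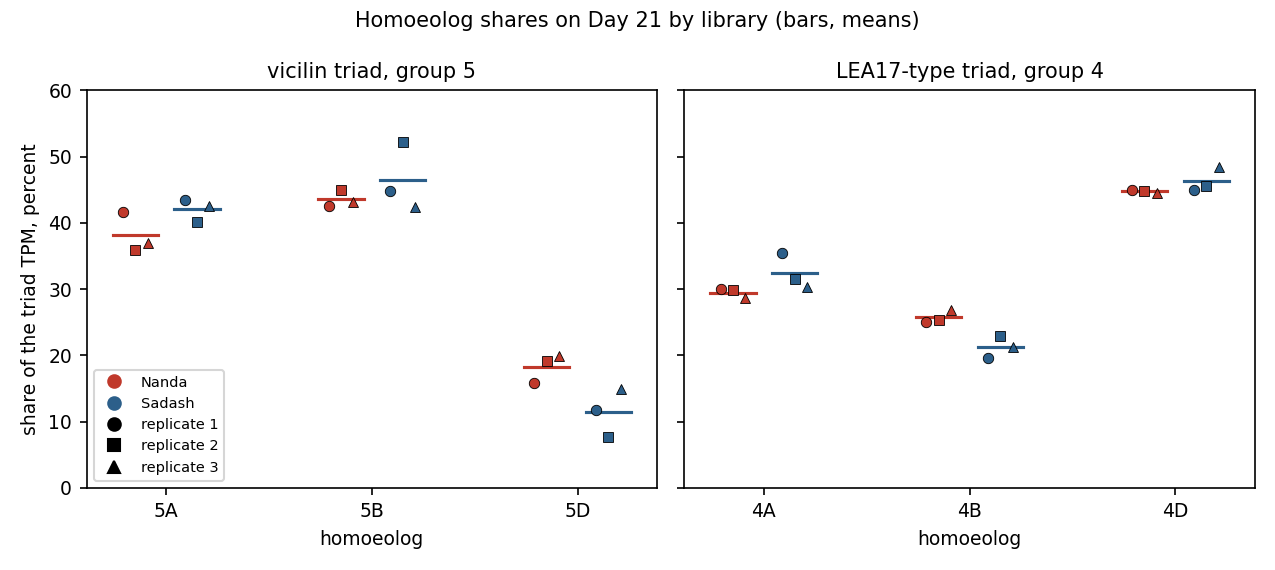
Share of each homoeolog in the summed TPM of its triad in each Day 21 library, for the vicilin triad on chromosome group 5 and the LEA17-type triad on group 4, with Nanda left of Sadash, a symbol per replicate and a bar at the mean. The 5D vicilin holds the smallest share of its triad and the 4D copy the largest share of the LEA17 triad.

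Vic-5D and LEA-4A each have copies on the other subgenomes, and their shares of the triad show which copy carries the transcript. Vic-5D was the smallest contributor to its triad on Day 21. It held 15.8% to 19.8% of the triad TPM in Nanda libraries and 7.62% to 14.9% in Sadash libraries, while the 5B copy TraesCS5B02G434100 held 42.5% to 44.9% in Nanda and 42.5% to 52.2% in Sadash. The mean share of Vic-5D was 6.82 percentage points higher in Nanda (18.3% ± 2.19 in Nanda and 11.4% ± 3.67 in Sadash; SD, n = 3 each), with every Nanda library above every Sadash library (two-sided exact permutation p = 0.1, the smallest that 3 against 3 allows, and 0.2 adjusted over 6 shares). LEA-4A held 29.5% ± 0.74 of its triad in Nanda and 32.4% ± 2.69 in Sadash (SD, n = 3 each; exact permutation p = 0.1, adjusted 0.2), and the 4B copy TraesCS4B02G175600 held 25.7% ± 0.94 in Nanda and 21.3% ± 1.68 in Sadash (exact permutation p = 0.1, adjusted 0.2). The exact permutation test of 3 against 3 libraries cannot pass 0.05. The authors' estimation divides reads that fit several copies, so values of near-identical copies are uncertain.

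Across the 18 libraries the 4 genes followed each other closely, with Pearson r of log2(CPM + 1) between 0.970 (Vic-4A and LEA-4A) and 0.993 (Vic-5D and Prx-2D), a description of points that share groups and libraries. The 5 closest to each were searched among 50753 genes whose mean reached 1 CPM. None of the 4 was among the 5 closest of another, so an r of this size was not particular to the 4. Prx-2D was closest to the 4B vicilin-like gene TraesCS4B02G169700 (r = 0.998), and the 2D caleosin TraesCS2D02G364100 was the 4th (r = 0.997). Vic-5D was closest to TraesCS3D02G517000 (r = 0.999), followed by the 4D vicilin-like gene TraesCS4D02G171800 (r = 0.998) and the 2B peroxiredoxin TraesCS2B02G174400 (r = 0.997). LEA-4A was closest to TraesCS2D02G425400 (r = 0.998), which the study's annotation names as a cold responsive protein of the cor14b type, and its triad partners on 4D and 4B were the 2nd (r = 0.998) and the 4th (r = 0.996). Vic-4A was closest to TraesCS5D02G201100 (r = 0.993), and none of its 5 nearest genes was among the related seed genes.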

How the data were processed

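RNA-seq libraries made with TruSeq kits were sequenced from 18 samples. Per the methods, the authors used Trimmomatic 0.39 for trimming and STAR 2.7.5a for alignment (build IWGSC 1.1), and the deposited expected counts per transcript are estimates by RSEM 1.3.3. The authors deposited TPM for the same transcripts. Both were summed per gene over high-confidence genes, and low-confidence genes (5.14% to 6.88% of counts) were left out. Expected counts were rounded, normalized by TMM and fitted with edgeR 4.0.16 (quasi-likelihood) over all 18 libraries, with 1 level per group, at least 1 CPM in 1 library and Benjamini-Hochberg adjustment. Standard errors came from the F statistics. The fit was tested on simulated data. Alternatives were RLE size factors, DESeq2 1.42.0, other filters, a replicate block, limma 3.58.1 with TPM pseudocounts of 1 and 0.1, fits of the compared groups alone, and omission of each library. Shares used scipy 1.17.1. The genes, the related list and the tests were chosen with earlier results of these data known. Genes named were the 4 members, genes of the list and the 5 nearest genes of each member. The strand setting of the counting is not given in the sources used here.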

Additional observations from a re-analysis of the deposited data

Results flagged for a closer look

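Among the 39 related seed genes tested, 10 had a step that differed between the genotypes by edgeR's interaction test. Of all genes, 7.41% were called in either direction in the first step and 16.2% in the second. From Day 0 to Day 7 the VP1 copy TraesCS3B02G452200 rose more in Nanda, by 1.90 on the log2 scale (adjusted p = 0.0050). From Day 7 to Day 21, 9 genes had a negative interaction, a log2 change lower in Nanda than in Sadash. Those that rose in both genotypes were the LEA group 3 genes TraesCS1B02G381200 (-4.52, adjusted p = 0.0033) and TraesCS1D02G369200 (-2.54, adjusted p = 0.0021), the LEA19-type gene TraesCS1D02G242300 (-3.11, adjusted p = 0.0094), the dehydrins TraesCS6A02G350500 (-4.70, adjusted p = 0.0031) and TraesCS6D02G332900 (-3.21, adjusted p = 7.9e-04) and the VP1 copy TraesCS3D02G412800 (-1.51, adjusted p = 0.0032). Among these, TraesCS1B02G381200, TraesCS1D02G242300 and TraesCS6A02G350500 had at most 0.35, 0.21 and 0.21 CPM in any Sadash Day 7 library. Such levels lie near the floor of 3 counts, so the sizes of these interactions depend on the prior count. Those lower on Day 21 in Nanda and not called in Sadash were the steroleosin TraesCS5B02G061600 (-2.72, adjusted p = 3.2e-04) and the LEC1 copies TraesCS6A02G287300 (-2.83, adjusted p = 2.5e-05) and TraesCS6B02G316600 (-2.44, adjusted p = 0.0021).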

How the results depend on the processing

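Most values kept their direction and their side of the threshold under the alternatives. The limits are 3 replicates a group, libraries of unequal depth on Sadash Day 21, counts near 0 before Day 21 and reads shared between homoeologs. Whether replicates were separate cultures is not given in the sources used here, so p-values measure the spread between these samples. The causes of the shifts below were not tested.

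Directions turned in 8 cases. With 1 library left out, Nanda over Sadash on Day 7 (log2) ranged from -1.38 to 6.98 for Prx-2D and from -0.24 to 9.15 for Vic-5D, and the interaction of the second step from -5.38 to 2.98 for Prx-2D, from -8.49 to 0.91 for Vic-5D and from -8.48 to 1.15 for Vic-4A. All these turned without Nanda Day 7 replicate 3 alone. For Vic-4A no Day 7 library then held a count, so the value only repeats the Day 21 difference. The first step of Vic-5D in Sadash ranged from -1.97, without Sadash Day 7 replicate 3, to 4.01. With limma on log2(TPM + 1) the second interaction was 0.47 for Prx-2D and 0.92 for Vic-4A.

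The number of related seed genes called moved by over 1.5 times in these comparisons. For Nanda over Sadash it was 0 by limma on log2(TPM + 1) on Day 0 (1 by edgeR), 22 without a filter and 5 with only the libraries compared on Day 7 (14), and 2 by limma on log2(TPM + 0.1) and 11 with only the libraries compared on Day 21 (4). For the interaction of the first step it was 2 by DESeq2, 6 by limma on log2(TPM + 0.1) and 8 on log2(TPM + 1) (1 by edgeR), and for the second step 5 by limma on log2(TPM + 1) (9). Leaving out 1 library at a time, the count between the genotypes was 2 to 7 on Day 21, with 7 after Nanda Day 7 replicate 3 was left out and 2 after Nanda or Sadash Day 21 replicate 3 was. It was 0 to 1 on Day 0, with 0 after Nanda Day 0 replicate 2 was left out, and the first interaction gave 0 to 1, with 0 after any Nanda Day 0 replicate, Nanda Day 7 replicate 3, or Sadash Day 0 replicate 2 or 3 was left out. Leaving out each Day 21 library kept the sign of the share differences, from 4.91 to 8.57 percentage points for Vic-5D and from -4.00 to -1.44 for LEA-4A.

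Over all groups, replicate numbers showed no pairing of the libraries. A correlation of deviations over 0.1 was found in 5 of 45 same-numbered pairs and 14 of 90 others. Closest to their own number were 4 of 18 libraries. On Day 21 alone, same-numbered Nanda and Sadash libraries correlated at 0.17, 0.16 and 0.39 (replicates 1, 2 and 3). Unlike-numbered ones lay between -0.28 and 0.11. Whether the Day 21 libraries were paired was not tested beyond the replicate block. With the replicate block, the related genes called were 36 and 32 for the first and second step in Nanda, 18 and 30 in Sadash, and 15 and 4 between the genotypes on Days 7 and 21, and no call of the 4 genes changed.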
